A study of Homo sapiens with 12 samples.

Results

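The genes described here are 45 genes of mitosis and the preceding G2 phase, among the 61487 gene rows of the count table. They were chosen by symbol, as cyclins, CDC25 phosphatases, mitotic kinases, checkpoint proteins, kinetochore and chromosomal passenger subunits, kinesins, spindle and cytokinesis proteins, chromosome structure proteins and 2 transcription factors, and each symbol matched a row. The RNA came from a human acute myeloid leukemia (AML) line, MOLM14, carrying in all groups an shRNA against RIP140 that doxycycline switches on. RIP140 is the nuclear receptor coregulator encoded by NRIP1. All cells were kept in serum free of tetracycline. The combined group received all-trans retinoic acid (ATRA, 1 µM, 48 h) together with doxycycline (DOX, 50 ng/mL, renewed every other day), the ATRA group received ATRA alone, the DOX group received DOX alone, and the untreated group received neither, with 3 libraries in each group that the labels call biological replicates. No group analysed here carried a control shRNA, so DOX itself and the knockdown cannot be told apart, and whether the cells were 1 clone or a pool is not given in the sources used here. The comparisons ask how the mitotic genes responded to ATRA, to induction of the shRNA, and to the pair.

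Entry into mitosis is driven by CDK1 bound to a B-type cyclin, which CDC25 phosphatases switch on and which polo-like and Aurora kinases reinforce. Chromosomes then attach to spindle microtubules through kinetochores, and the spindle checkpoint holds back CDC20 and the anaphase-promoting complex (APC/C) until every chromosome is attached. In human cells most of these genes are transcribed in G2 and mitosis, when B-MYB (MYBL2) and FOXM1 act with the MuvB complex, and they are held silent in resting cells by the related DREAM complex. MuvB binds the cell cycle genes homology region (CHR), often placed downstream of CCAAT boxes bound by NF-Y.

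The promoters of 4 members are shown because they carry this arrangement and because the first 2 genes were lower in ATRA-treated cells while the other two were called in no comparison. Each is the RefSeq window from 250 bases before to 50 bases after a gene's start on the GRCh38.p14 build, printed 5′ to 3′ on the plus strand, which is the gene's strand. The window of CCNB2 is chr15:59104896-59105195, that of PLK1 is chr16:23678639-23678938, that of CDC20 is chr1:43358731-43359030 and that of HMMR is chr5:163460382-163460681. Capitals mark the CHR, searched as TTTGAA and TTCGAA on both strands, where the first also reads TTCAAA. They also mark CCAAT on both strands, which also reads ATTGG. Where matches touch or overlap, the capitals run together.
CCNB2: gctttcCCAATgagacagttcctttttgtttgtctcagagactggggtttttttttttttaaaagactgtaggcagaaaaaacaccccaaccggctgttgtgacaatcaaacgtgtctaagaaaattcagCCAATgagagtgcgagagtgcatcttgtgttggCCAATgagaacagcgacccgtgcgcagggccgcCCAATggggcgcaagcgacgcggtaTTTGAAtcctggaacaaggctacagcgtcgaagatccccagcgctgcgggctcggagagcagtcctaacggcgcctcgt
PLK1: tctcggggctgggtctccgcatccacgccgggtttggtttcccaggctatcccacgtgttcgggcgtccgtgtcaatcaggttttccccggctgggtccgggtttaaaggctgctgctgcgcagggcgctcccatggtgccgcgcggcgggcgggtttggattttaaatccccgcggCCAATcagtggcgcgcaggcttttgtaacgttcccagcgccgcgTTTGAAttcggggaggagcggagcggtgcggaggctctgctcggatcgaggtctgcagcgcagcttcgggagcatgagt
CDC20: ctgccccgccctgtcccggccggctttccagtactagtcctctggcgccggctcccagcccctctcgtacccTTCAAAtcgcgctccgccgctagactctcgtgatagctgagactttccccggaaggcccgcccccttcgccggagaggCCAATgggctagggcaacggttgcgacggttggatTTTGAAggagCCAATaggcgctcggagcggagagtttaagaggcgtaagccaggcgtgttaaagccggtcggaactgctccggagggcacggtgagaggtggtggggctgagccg
HMMR: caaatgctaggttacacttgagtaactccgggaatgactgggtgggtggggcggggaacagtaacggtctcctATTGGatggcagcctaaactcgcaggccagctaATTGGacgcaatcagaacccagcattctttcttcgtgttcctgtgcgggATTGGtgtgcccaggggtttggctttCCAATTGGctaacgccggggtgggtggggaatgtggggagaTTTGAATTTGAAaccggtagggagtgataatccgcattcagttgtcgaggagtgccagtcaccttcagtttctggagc

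A promoter window was available for 38 of the 45 members. Of these 38 genes, 29 (76.3%) held a CHR match, against 19.5% of the 27305 genes with a window. A CCAAT match was present in 31 members (81.6%), against 39.7% of all genes, and both motifs in 24 members (63.2%), against 7.85%. The CHR match lay within 50 bases of the start in 25 members, as in CCNB2, PLK1 and HMMR but not in CDC20, whose matches lay farther upstream. A CHR match was not confined to members that were called: 9 of 13 members lower under ATRA alone held a CHR match, as did 19 of 24 members that were not called in that comparison. A CHR and a CCAAT match overlapped in 2 of the 50 member windows and matches of any kind in 5, and a match is a run of letters, not a measured binding site.

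The least deep library, DOX replicate 3, held 2685984 counts and the deepest, DOX replicate 2, held 19358619. NRIP1 had 15.9, 20.9 and 20 CPM (counts scaled to library size) in the combined libraries, 38.4, 41.1 and 51.9 in the ATRA libraries, 19.2, 15 and 15.7 in the DOX libraries and 59.7, 58.9 and 53.3 in the untreated libraries. The summed level of 10 myeloid markers was 978 to 1180 CPM in the combined libraries and 1030 to 1090 with ATRA. It was 1090 to 1150 with DOX and 986 to 1060 without treatment. That sum hides moves of single markers both ways. ITGAM had 76.2, 66.0 and 83.2 CPM with ATRA and 26.9, 28.5 and 30.9 without treatment. MPO had 98.6, 86.1 and 84.9 CPM with ATRA and 152, 148 and 160 without treatment. The monocyte markers CD14 and CD68 averaged 0.145 and 0.67 CPM. Summed T cell markers were at most 0.29 CPM in any library, and B cell markers were 1.73 to 3.57 CPM. Epithelial markers, nearly all of it the keratins KRT8 and KRT18 with EPCAM at 0, summed to 39.7 to 54.8 CPM in the combined libraries, 32.3 to 37.8 with ATRA, 59.6 to 71.8 with DOX and 43.9 to 53.1 without treatment, and their part in the members' values was not tested. In bulk RNA, fewer cells in G2 and mitosis and less of these mRNAs in each such cell cannot be told apart.

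Levels per length, as RPKM (CPM divided by exon length in kilobases), separated the members widely in untreated cells. MYBL2, the transcription factor B-MYB, was highest at 101 RPKM, followed by CDC20, the APC/C activator, at 68.0 and TOP2A, the topoisomerase that untangles sister chromatids, at 59.4. CDC25C, a phosphatase that activates CDK1, stood at 4.21 RPKM, and the median of the 43 members other than PRC1 and NUSAP1 was 18.1 RPKM. Those 2 genes were far lower. PRC1, which bundles the microtubules of the spindle midzone, stood at 0.383 RPKM with 4 to 46 counts per library, and NUSAP1, a spindle microtubule protein, at 0.306 RPKM with 0 to 21 counts. PRC1 is overlapped on its strand by the GENCODE gene ENSG00000284946, which held 9 to 97 counts, and NUSAP1 by ENSG00000285920, which held 0. The part of these overlaps in the low counts was not tested. NUSAP1 did not pass the filter on low counts, so 44 of the 45 members were tested.

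**Figure D1:**
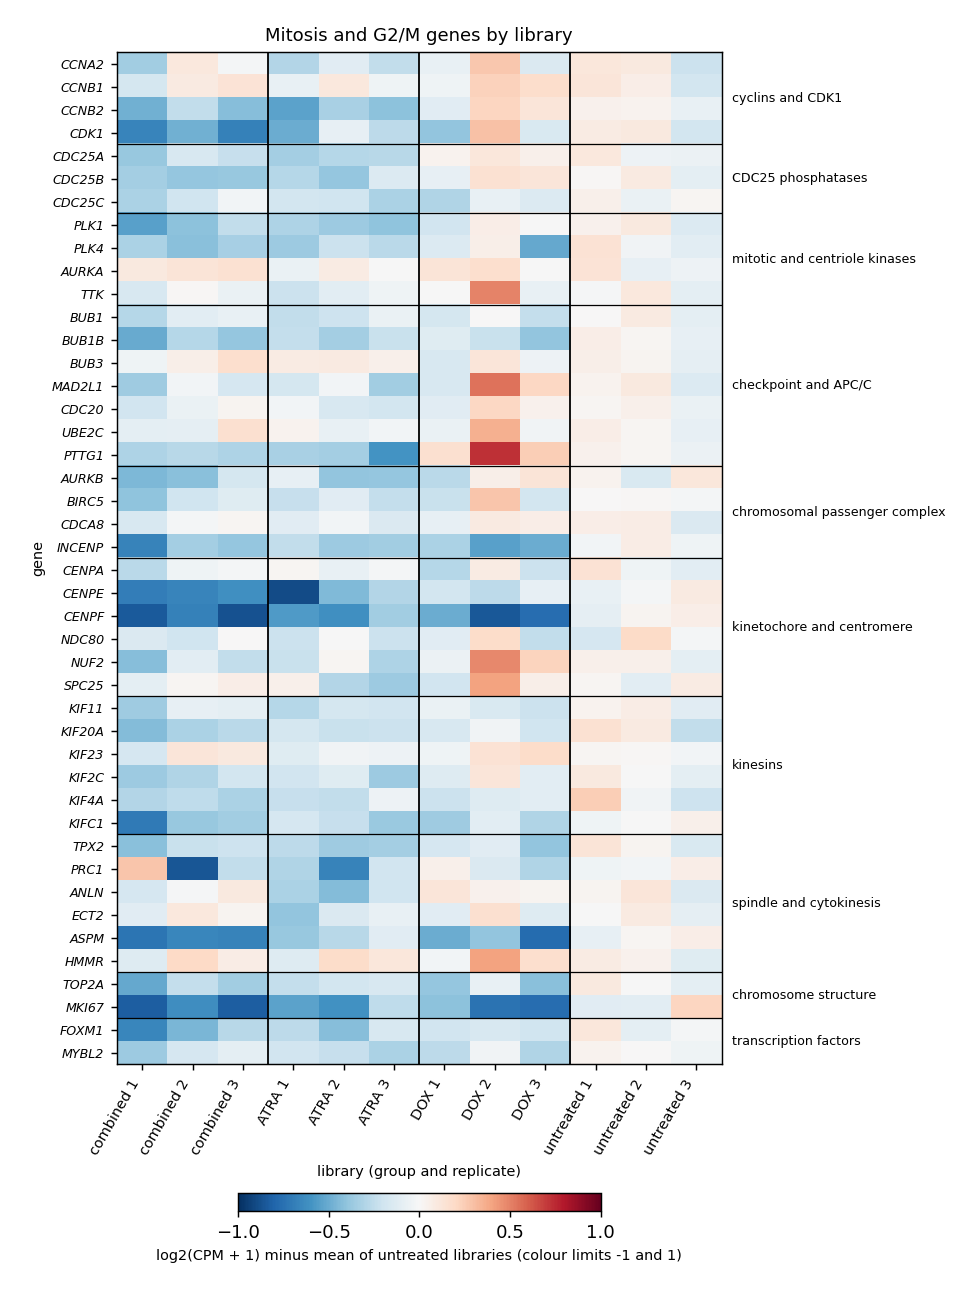
Heat map of the 44 tested members (rows, grouped by role) in the 12 libraries (columns), coloured by the difference in log2(CPM + 1) from the gene's untreated mean. The ATRA and combined columns are mostly below 0. Counting also NUSAP1, which is not drawn, 43 of 45 members are below in combined replicate 1, while DOX replicate 2 has 17 below.

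The heat map of member levels sets each library against the untreated mean of log2(CPM + 1). NUSAP1 is not drawn but is included in the counts that follow. In the combined libraries 43, 36 and 33 of the 45 members lay below that mean, and the median differences were -0.35, -0.20 and -0.18 on the log2 scale. ATRA libraries had 41, 40 and 43 members below, at medians of -0.24, -0.21 and -0.22. The DOX libraries did not resemble each other: replicates 1 and 3 had 40 and 31 members below, at medians of -0.14 and -0.13, whereas replicate 2 had 17 below and a median of 0.08. Among untreated libraries 10, 16 and 35 members were below their own mean, the last in replicate 3, which also had the largest share of counts from mitochondrial ribosomal RNA, 4.6%. That share was 1.98, 2.02 and 1.23% in the combined libraries, 2.09, 2.74 and 2.64% with ATRA, 2.18, 1.02 and 1.3% with DOX, and 2.54 and 2.85% in the other untreated libraries. Every DOX and combined library had a lower share than every untreated library. A fit with this share as a term is given below, but it cannot cleanly separate the share from these groups. The part of the share in the members' values was otherwise not tested.

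ATRA alone lowered part of the mitotic programme, by modest amounts. Of 44 members, 15 were lower in ATRA than in untreated cells and 0 were higher (edgeR quasi-likelihood test, Benjamini-Hochberg adjusted p under 0.05 over 16104 genes), against 13.2% of all genes tested called lower and 15.7% called higher. DESeq2 also called 15 lower and 0 higher. The median log2 change was -0.23 over the members and -0.01 over all genes, 41 members had a negative change, and no change reached 1 on the log2 scale. In 24 members every ATRA library lay below every untreated library, a share of all genes tested of 22.5%. No role group moved as a whole, except that both transcription factors were called lower.

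**Figure D2:**
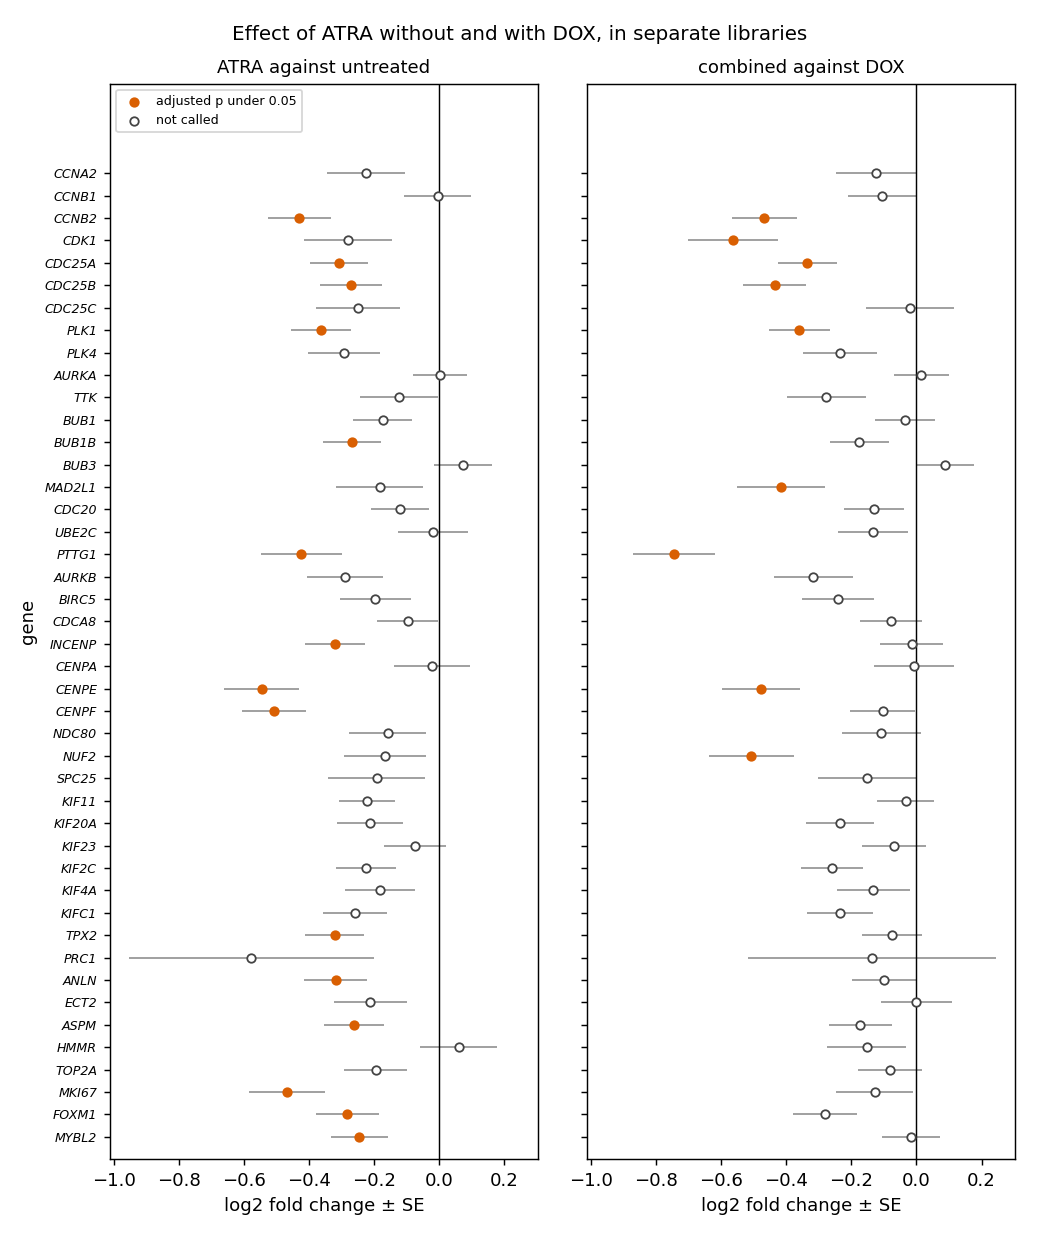
Log2 fold change ± SE of the 44 tested members for ATRA against untreated (left) and combined against DOX (right), with filled points for an adjusted p under 0.05. Most points lie left of 0 in both panels. Negative in both were 41 of 44 members, against 6183 of the 16104 genes tested.

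Among the cyclins, CCNB2, a B-type partner of CDK1, had 47.9, 55.8 and 52.5 CPM in ATRA libraries, against 72.0, 71.8 and 66.2 CPM in untreated libraries. All ATRA libraries were lower, without overlap, and the log2 change was -0.43 ± 0.10 (SE; edgeR adjusted p = 0.00215). Its paralog CCNB1, the main mitotic cyclin, averaged 104 ± 7.14 CPM in ATRA and 105 ± 11.5 CPM in untreated libraries (SD, n = 3 each), and its log2 change was 0.00 ± 0.10 (adjusted p = 0.983). CCNA2, the A-type cyclin, and CDK1 had changes of -0.22 ± 0.12 and -0.28 ± 0.14 that were not called. Of the CDC25 phosphatases, CDC25A and CDC25B were lower by log2 changes of -0.31 ± 0.09 and -0.27 ± 0.09, whereas CDC25C at -0.25 ± 0.13 was not called. CDC25A was not called when untreated replicate 1 (-0.25) or ATRA replicate 1 (-0.28) was left out. CDC25B needed untreated replicates 1 (-0.26) and 2 (-0.23), ATRA replicates 1 (-0.25) and 2 (-0.21), and combined replicates 1 (-0.26) and 2 (-0.27) to be called, the values in parentheses being its change without each. CDK1 was called without DOX replicate 2, at -0.28. Each such fit here and below has fewer libraries, and a call can change in it with little change in the estimate.

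PLK1, the polo-like kinase of mitotic entry and spindle assembly, had 118, 113 and 110 CPM in ATRA libraries, against 150, 157 and 132 CPM in untreated libraries. The groups did not overlap and the change was -0.36 ± 0.09 (edgeR adjusted p = 0.00524). AURKA, the Aurora kinase of the spindle poles, was level at 62.4 ± 3.20 CPM in ATRA and 62.2 ± 5.19 CPM in untreated cells (SD, n = 3 each), with a log2 change of 0.00 ± 0.08. PLK4, which starts centriole duplication, just missed the threshold at -0.29 ± 0.11 (adjusted p = 0.051) and was called without untreated replicate 3 (-0.35) or any 1 DOX library (-0.29 each time), and TTK, a checkpoint kinase, was at -0.12 ± 0.12.

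Of 7 checkpoint and APC/C genes 2 were called. PTTG1, which encodes securin, the inhibitor of separase, had 29.7, 29.4 and 24.5 CPM in ATRA libraries, against 38.6, 38.0 and 36.0 CPM in untreated libraries. Every ATRA library was lower and the change was -0.42 ± 0.13 (edgeR adjusted p = 0.0145), and the gene was not called when untreated replicate 1 (-0.40) or ATRA replicate 3 (-0.33) was left out. BUB1B, the checkpoint protein BubR1, changed by -0.27 ± 0.09, and each of untreated replicates 1 (-0.23) and 2 (-0.26) and of ATRA replicates 1 (-0.28), 2 (-0.23) and 3 (-0.27) had to be present for that call. The others, namely BUB1, BUB3, MAD2L1, CDC20 and the ubiquitin-conjugating enzyme UBE2C, had changes between -0.18 and 0.07.

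Kinetochore genes split. CENPF, a large protein of the outer kinetochore, had 203, 197 and 237 CPM in ATRA libraries, against 283, 307 and 316 CPM in untreated libraries, and CENPE, a kinetochore kinesin that carries chromosomes to the spindle equator, had 31.5, 43.6 and 48.5 CPM, against 56.5, 58.8 and 63.4 CPM. Neither gene's groups overlapped, and the changes were -0.51 ± 0.10 for CENPF (edgeR adjusted p = 0.000449) and -0.54 ± 0.12 for CENPE (adjusted p = 0.00114). NDC80, NUF2 and SPC25, subunits of the complex that grips microtubules, had changes from -0.19 to -0.16, and CENPA, the histone H3 variant that marks centromeres, was at -0.02 ± 0.12, none of them called. INCENP, the scaffold of the chromosomal passenger complex, changed by -0.32 ± 0.09 (adjusted p = 0.0121), and was not called when untreated replicate 2 (-0.28), ATRA replicate 2 (-0.30) or ATRA replicate 3 (-0.29) was left out. Its partners AURKB, the kinase, BIRC5, survivin, and CDCA8, borealin, were not called, at -0.29 ± 0.12, -0.20 ± 0.11 and -0.10 ± 0.09, although AURKB was called without untreated replicate 2 (-0.36), ATRA replicate 1 (-0.40) or DOX replicate 1 (-0.29).

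MKI67, which encodes the proliferation marker Ki-67, a coat of mitotic chromosomes, had 429, 408 and 522 CPM in ATRA libraries, against 576, 580 and 721 CPM in untreated libraries. The lowest untreated library lay above the highest ATRA library, and the change was -0.47 ± 0.12 (edgeR adjusted p = 0.00443). TOP2A was at -0.19 ± 0.10 and was not called. TPX2, which activates AURKA on the spindle, ANLN, the scaffold anillin of the cleavage furrow, and ASPM, a spindle pole protein, were lower by changes of -0.32 ± 0.09, -0.32 ± 0.10 and -0.26 ± 0.09. TPX2 needed untreated replicate 1 (-0.25) and ATRA replicate 3 (-0.30) to be called, and ANLN needed untreated replicates 1 (-0.30) and 2 (-0.26) and ATRA replicates 1 (-0.31) and 2 (-0.26). ASPM lost its call most often of the 3. It was not called without untreated replicate 2 (-0.25) or 3 (-0.23), or without ATRA replicate 1 (-0.19) or 2 (-0.25). The same held without combined replicate 1 (-0.25), 2 (-0.26) or 3 (-0.25). PRC1, with its few counts, was at -0.58 ± 0.38, ECT2, the exchange factor that places the cleavage furrow, at -0.21 ± 0.11 and HMMR, a spindle assembly factor, at 0.06 ± 0.12, none of them called.

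All 6 kinesins had negative changes, from -0.26 for KIFC1, a minus-end motor, to -0.07 for KIF23, a midzone motor, and none was called. Leaving out 1 library brought in KIF11 (-0.28 without untreated replicate 3, -0.22 without DOX replicate 1), KIF20A (-0.34 without untreated replicate 3), KIF2C (-0.22 without DOX replicate 2) and KIFC1 (-0.26 without DOX replicate 1, -0.25 without DOX replicate 2, -0.24 without combined replicate 1). FOXM1 had 73.4, 65.4 and 79.0 CPM in ATRA libraries, against 95.6, 82.4 and 87.1 CPM in untreated libraries, and MYBL2 had 246, 240 and 226 CPM, against 288, 283 and 273 CPM. Both transcription factors were lower without overlap, with changes of -0.28 ± 0.10 (edgeR adjusted p = 0.0323) and -0.25 ± 0.09 (adjusted p = 0.0423). FOXM1 depended on untreated replicates 1 (-0.22) and 3 (-0.30) and ATRA replicates 1 (-0.28) and 2 (-0.21). MYBL2, nearest the threshold, depended on untreated replicates 1 (-0.22), 2 (-0.24) and 3 (-0.27), ATRA replicates 1 (-0.26), 2 (-0.25) and 3 (-0.20), DOX replicate 3 (-0.24) and combined replicate 2 (-0.24). Only CCNB2, PLK1, CENPE, CENPF and MKI67 of the 15 genes were called in every alternative fit run. The number called fell to 7 without untreated replicate 1 and to 9 without ATRA replicate 1 or without ATRA replicate 2. It was 7 with no filter on low counts, 23 when only the ATRA and untreated libraries were fitted and 27 with the mitochondrial ribosomal RNA share as a term. The rise to 23 came with more calls over all genes than in the main fit, although only 15349 genes were tested. The rise to 27 did not, as calls over all 16104 genes were slightly fewer. With no filter they were also slightly fewer, over 35850 genes.

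ATRA was also compared in cells with the shRNA induced, as combined against DOX, in libraries that the previous comparison did not use. Of 44 members, 9 were lower in combined than in DOX cells and 0 were higher, against 8.24% of all genes tested called lower and 10.7% called higher. The median change was -0.14 over the members and -0.01 over all genes. CCNB2 had 49.8, 58.8 and 51.7 CPM in combined libraries, against 64.5, 81.5 and 76.0 CPM in DOX libraries, and CDK1, the mitotic kinase itself, had 75.8, 86.0 and 74.8 CPM, against 91.4, 147 and 108 CPM. The combined libraries were lower in both genes without overlap, by changes of -0.47 ± 0.10 for CCNB2 (edgeR adjusted p = 0.00189) and -0.56 ± 0.14 for CDK1 (adjusted p = 0.00595).

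PTTG1 had the largest change of the members in this comparison. It stood at 30.1, 30.7 and 30.1 CPM in combined libraries, against 42.0, 62.8 and 44.5 CPM in DOX libraries, so DOX replicate 2 was highest and the groups did not overlap (change -0.75 ± 0.13, edgeR adjusted p = 0.000166). CDC25B changed by -0.44 ± 0.10, CENPE by -0.48 ± 0.12, NUF2 by -0.51 ± 0.13, PLK1 by -0.36 ± 0.09 and CDC25A by -0.34 ± 0.09. MAD2L1, the checkpoint protein that binds CDC20, changed by -0.42 ± 0.14 although its libraries overlapped, at 70.3, 88.6 and 80.6 CPM in combined against 80.9, 132 and 104 CPM in DOX libraries.

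DOX replicate 2, the deepest library, bore on several of these calls. Without it the members called lower numbered 4, and the calls of CDK1 (-0.31), NUF2 (-0.31), MAD2L1 (-0.17), PLK1 (-0.29) and CDC25A (-0.30) were lost. Without combined replicate 1 the calls of NUF2 (-0.40), PLK1 (-0.27), CDC25A (-0.25) and MAD2L1 (-0.31) were lost, and MAD2L1 was also not called without ATRA replicate 1 (-0.40), DOX replicate 3 (-0.42) or combined replicate 3 (-0.42). Without DOX replicate 1 the number rose to 14, with AURKB (-0.44), BIRC5 (-0.36), KIF2C (-0.32), KIFC1 (-0.30) and TTK (-0.39) added. Across the fits without 1 library the calls over all genes, either way, ran from 2195 to 3898 in this comparison. AURKB (-0.40) and FOXM1 (-0.37) were called without combined replicate 3, and PLK4 (-0.33) without DOX replicate 3. CCNB2, CDC25B and PTTG1 were called in every alternative fit run.

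The pair of ATRA comparisons rests on separate libraries, so their results can be set side by side. All 15 members that were lower under ATRA alone had a negative change in combined against DOX, and 6 were called in both: CCNB2, CDC25A, CDC25B, PLK1, PTTG1 and CENPE. Among all genes tested, 2123 were lower under ATRA alone, of which 1952 were negative and 878 called lower in combined against DOX. Across the 44 members the Spearman correlation of the changes was 0.38, against 0.65 across all 16104 genes, and genes within a library are not independent. CENPF and MKI67, among the strongest under ATRA alone, had changes of -0.10 ± 0.10 and -0.13 ± 0.12 in combined against DOX and were not called there. The difference itself, tested as the interaction, was called for 0 of 44 members by edgeR and 0 by DESeq2, against 0.267% of all genes tested by edgeR. The smallest adjusted p was that of CENPF, with an interaction of 0.40 ± 0.14 (edgeR adjusted p = 0.283), and leaving out DOX replicate 1 made it a call at 0.53.

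DOX alone gave few calls among the members, and the share called lower was near that over all genes. Against untreated cells 4 of 44 members (9.09%) were lower and 1 (2.27%) was higher. Of all genes tested 7.10% were called lower and 8.08% higher, and DESeq2 called 5 members lower and 1 higher. The median change was -0.04 over the members and 0.01 over all genes, and that of the members turned to 0.04 without DOX replicate 1. In 9 members every DOX library lay below every untreated library and in 1 above, where 13.9% and 17.0% of all genes did so.

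The 4 lower genes were CENPF, MKI67, ASPM and INCENP. CENPF had 214, 168 and 177 CPM in DOX libraries, against 283, 307 and 316 CPM in untreated libraries, a change of -0.69 ± 0.10 (edgeR adjusted p = 0.000399). MKI67 had 468, 372 and 367 CPM, against 576, 580 and 721 CPM, and changed by -0.63 ± 0.12 (adjusted p = 0.00256). ASPM had 66.4, 71.3 and 54.9 CPM, against 88.7, 95.5 and 98.6 CPM, and INCENP had 79.3, 67.6 and 69.9 CPM, against 97.2, 105 and 96.1 CPM. No DOX library reached the untreated range in any of the 4 genes, and the changes of ASPM and INCENP were -0.52 ± 0.09 (adjusted p = 0.00213) and -0.45 ± 0.09 (adjusted p = 0.00502). All 4 calls held when any 1 library was left out. They were lost with the mitochondrial ribosomal RNA share as a term, a fit in which the calls over all genes fell to 77. The changes in that fit were -0.43 for CENPF, -0.28 for MKI67, -0.47 for ASPM and -0.43 for INCENP. The share did not overlap between DOX and untreated libraries, so that fit cannot decide its part. Without replicate 3 of both untreated and DOX, CENPF alone was called, and ASPM (-0.41), INCENP (-0.45) and MKI67 (-0.45) were not.

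PTTG1 was the 1 gene higher in DOX than in untreated cells, at 42.0, 62.8 and 44.5 CPM in DOX libraries, against 38.6, 38.0 and 36.0 CPM in untreated libraries (change 0.44 ± 0.12, edgeR adjusted p = 0.0228). All DOX libraries were higher, replicate 2 by far the most. The call was lost without DOX replicate 2, at 0.20, without untreated replicate 2, at 0.45, and without untreated replicate 3, at 0.42. Leaving out DOX replicate 1 instead gave 5 members called higher, with HMMR (0.33), MAD2L1 (0.42), NUF2 (0.41) and TTK (0.33) added to PTTG1, and brought BUB1B (-0.28) among the lower genes. The share of all genes called higher in that fit is not given here. Calls over all genes, either way, ran from 659 to 4326 across the fits without 1 library. CDC25B, PLK1 and CCNB2, which were lower under ATRA with and without DOX, had changes of 0.06 ± 0.10, -0.04 ± 0.09 and 0.08 ± 0.10 under DOX alone.

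**Figure D3:**
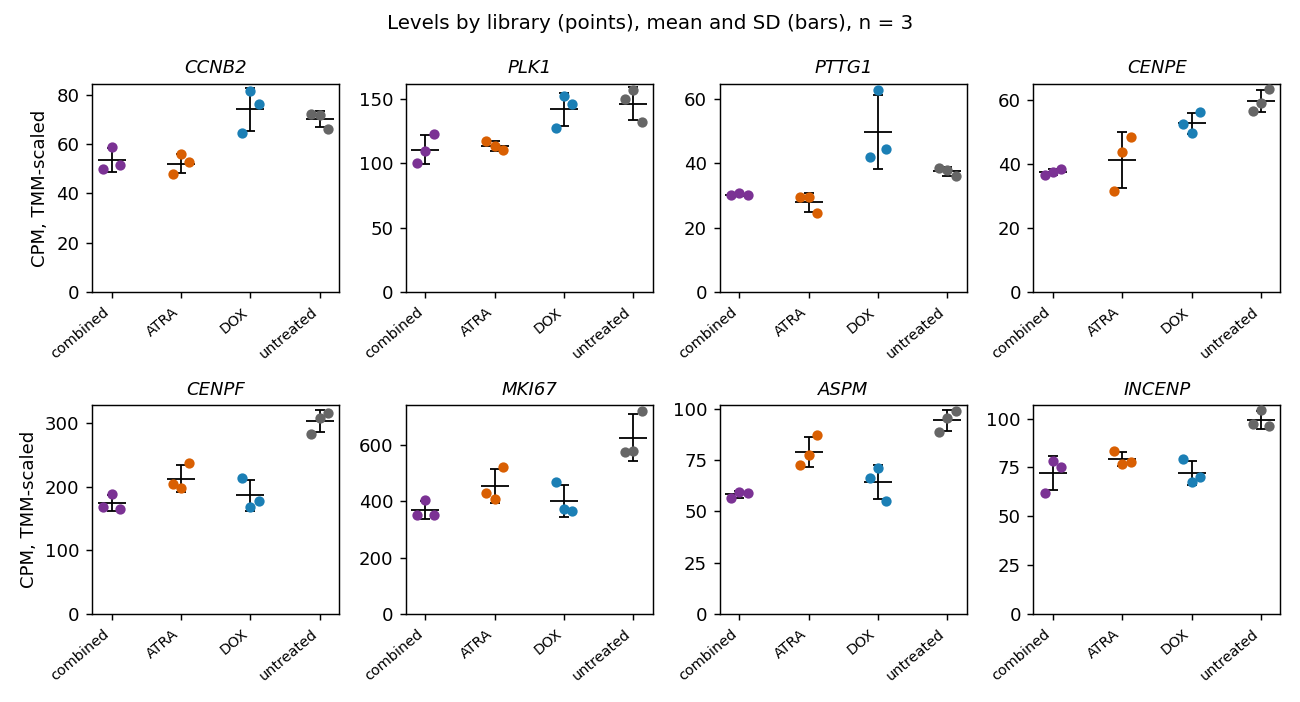
CPM of selected members in each library (points) with the group mean and SD, in the order combined, ATRA, DOX and untreated. In CCNB2 and PLK1 the combined and ATRA points lie below the DOX and untreated points, while in CENPF and MKI67 the untreated points alone stand high.

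The plot of member levels by group shows both kinds of pattern. CCNB2 averaged 53.5 ± 4.77 CPM in combined libraries, 52.1 ± 3.95 with ATRA, 74 ± 8.71 with DOX and 70 ± 3.27 without treatment (SD, n = 3 each). CENPF averaged 174 ± 12.6 CPM in combined libraries, 213 ± 21.6 with ATRA, 186 ± 24.4 with DOX and 302 ± 17.3 without treatment. CCNB2 was thus low in the groups that received ATRA, and CENPF was low in every treated group.

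Adding DOX to ATRA gave few calls among the members and among all genes. In combined against ATRA cells 1 of 44 members (2.27%) was lower and 0 were higher. Of all genes tested 2.54% were called lower and 1.89% higher, and the median change was -0.01 over the members and 0.00 over all genes. That member was ASPM, at 56.3, 59.5 and 59.0 CPM in combined libraries, against 72.3, 77.4 and 87.0 CPM in ATRA libraries. The groups did not overlap and the change was -0.44 ± 0.09 (edgeR adjusted p = 0.00872), a call lost without ATRA replicate 3, at -0.36. CENPF and MKI67 had changes of -0.29 ± 0.10 and -0.29 ± 0.12 without overlap of their libraries and were not called, CENPF with adjusted p = 0.103. CENPF was called without DOX replicate 1, at -0.28. ANLN had a positive change of 0.29 ± 0.10 (adjusted p = 0.0987), which was called without combined replicate 1, at 0.36. All 4 members lower under DOX alone had a negative change here, in libraries that comparison did not use, and 1 of them, ASPM, was called. Among all genes tested 1144 were lower under DOX alone, of which 1015 had a negative change and 136 were called lower in combined against ATRA.

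Against untreated cells the combined cells had 20 members lower and 0 higher, against 18.5% of all genes tested called lower and 19.6% called higher. Both this comparison and those of ATRA and DOX alone use the untreated libraries, so they are not independent. The median change was -0.26 over the members and -0.01 over all genes, and in 24 of the 44 tested members every combined library lay below every untreated library, where 25.1% of all genes did so. CENPF, at 168, 188 and 165 CPM in combined libraries against 283, 307 and 316 CPM in untreated libraries, changed by -0.80 ± 0.10 (edgeR adjusted p = 2.12e-06). MKI67, at 351, 405 and 351 CPM against 576, 580 and 721 CPM, changed by -0.76 ± 0.12. For both genes the highest combined library was far under the lowest untreated library.

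ASPM changed by -0.70 ± 0.09, CENPE by -0.67 ± 0.12, CDK1 by -0.61 ± 0.14, INCENP by -0.47 ± 0.09, FOXM1 by -0.47 ± 0.10, PLK1 by -0.40 ± 0.09, BUB1B by -0.40 ± 0.09, CCNB2 by -0.39 ± 0.10 and CDC25B by -0.38 ± 0.09. TOP2A had 267, 324 and 300.4 CPM in combined libraries, against 409, 381 and 356 CPM in untreated libraries, and KIFC1 had 56.2, 71.0 and 72.3 CPM, against 89.6, 92.0 and 95.7 CPM. Every combined library was below the untreated range in both genes. The change of TOP2A, which was not called under either agent alone, was -0.36 ± 0.10 (edgeR adjusted p = 0.00594), although DOX against untreated called it without DOX replicate 2 (-0.40) or combined replicate 1 (-0.28). Of the 6 kinesins 4 were lower: KIFC1 at -0.48 ± 0.10, KIF20A, a cytokinesis motor, at -0.36 ± 0.10, KIF4A, a motor on chromosome arms, at -0.30 ± 0.11 and KIF2C, a microtubule depolymerase, at -0.29 ± 0.09. PLK4, AURKB, TPX2 and CDC25A were lower too, by -0.36 ± 0.11, -0.36 ± 0.12, -0.29 ± 0.09 and -0.26 ± 0.09. Of the 20 genes, 12 were also lower under ATRA alone, and 13 were called in every alternative fit run.

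The number called lower fell to 13 without untreated replicate 1, when the calls of KIF20A (-0.27), KIF4A (-0.16), KIF2C (-0.23), PLK4 (-0.28), AURKB (-0.34), TPX2 (-0.21) and CDC25A (-0.20) were lost. These 7 genes account for every call lost in any alternative. Without combined replicate 1 the calls of AURKB (-0.29), CDC25A (-0.18), KIF20A (-0.29), KIF2C (-0.23), KIF4A (-0.28) and TPX2 (-0.21) were lost. Combined replicate 2 was needed for AURKB (-0.32), KIF2C (-0.27), KIF4A (-0.31) and PLK4 (-0.33), and combined replicate 3 for CDC25A (-0.27) and KIF4A (-0.28). Untreated replicate 2 was needed for KIF2C (-0.28), KIF4A (-0.32) and TPX2 (-0.27), untreated replicate 3 for AURKB (-0.30) and ATRA replicate 1 for KIF4A (-0.28).

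Over the 5 pairwise comparisons 25 members were called at least once, ASPM 4 times, and 19 tested members were called in none. Those 19 are CCNA2, CCNB1, CDC25C, AURKA, TTK, BUB1, BUB3, CDC20, UBE2C, BIRC5, CDCA8, CENPA, NDC80, SPC25, KIF11, KIF23, PRC1, ECT2 and HMMR. CDC20, the APC/C activator that the checkpoint restrains, averaged 132 ± 9.95 CPM in combined libraries, 127 ± 7.45 with ATRA, 144 ± 16.2 with DOX and 138 ± 5.82 without treatment (SD, n = 3 each), so the group means differed by little more than their spread.

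Other genes of the same pathways were read from lists chosen with earlier results of these data known. Shares are to be read against the 13.2% of all genes tested that were lower under ATRA alone. Of 32 other kinetochore and centromere genes 12 were lower and 0 higher, among them SKA3, which helps the kinetochore hold microtubules (-0.69 ± 0.09), and KNTC1, of the complex that brings checkpoint proteins to kinetochores (-0.50 ± 0.09). Of 30 other spindle, motor and cytokinesis genes 8 were lower and 0 higher, including KIF20B (-0.47 ± 0.10) and CIT, citron kinase (-0.42 ± 0.11). Among 18 condensin, cohesin and separase genes 8 were lower and 0 higher, led by SMC4 (-0.77 ± 0.08) and NCAPD2 (-0.54 ± 0.08), both of condensin, and ESPL1, separase, at -0.41 ± 0.08. Of 15 mitotic entry regulators 5 were lower and 0 higher, including LMNB1, a nuclear lamin, at -0.86 ± 0.09 and CHEK1, a checkpoint kinase, at -0.48 ± 0.09.

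In contrast, of 18 genes of the APC/C list 1 was lower, ANAPC1 (-0.27 ± 0.10), and 1 higher, CDC23 (0.26 ± 0.09), and of 11 subunits of DREAM and MuvB none was called under ATRA alone. In combined against DOX 1 of these 11 was lower, TFDP2 (-0.43 ± 0.14), against 8.24% of all genes tested. In combined against untreated 1 was lower, RBBP4 (-0.23 ± 0.08), against 18.5%. Of the S-phase genes, 22 of 36 were lower under ATRA alone and 0 were higher, including UHRF1 (-0.79 ± 0.08), E2F2 (-0.85 ± 0.12) and CDT1, the licensing factor (-0.61 ± 0.10). Their median change was -0.31, against -0.23 for the mitotic members and -0.01 for all genes. In combined against DOX, 5 of the 36 S-phase genes were lower, against 8.24% of all genes tested. Of 5 CDK inhibitors tested 3 were higher under ATRA alone, against 15.7% of all genes tested: CDKN1A, which encodes p21, by 0.66 ± 0.09 (edgeR adjusted p = 4.93e-06), CDKN2D by 0.69 ± 0.12 and CDKN1C by 2.55 ± 0.40. CDKN1A was also higher in DOX than in untreated cells, by 0.83 ± 0.09, and in combined than in untreated cells, by 1.09 ± 0.09.

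**Figure D4:**
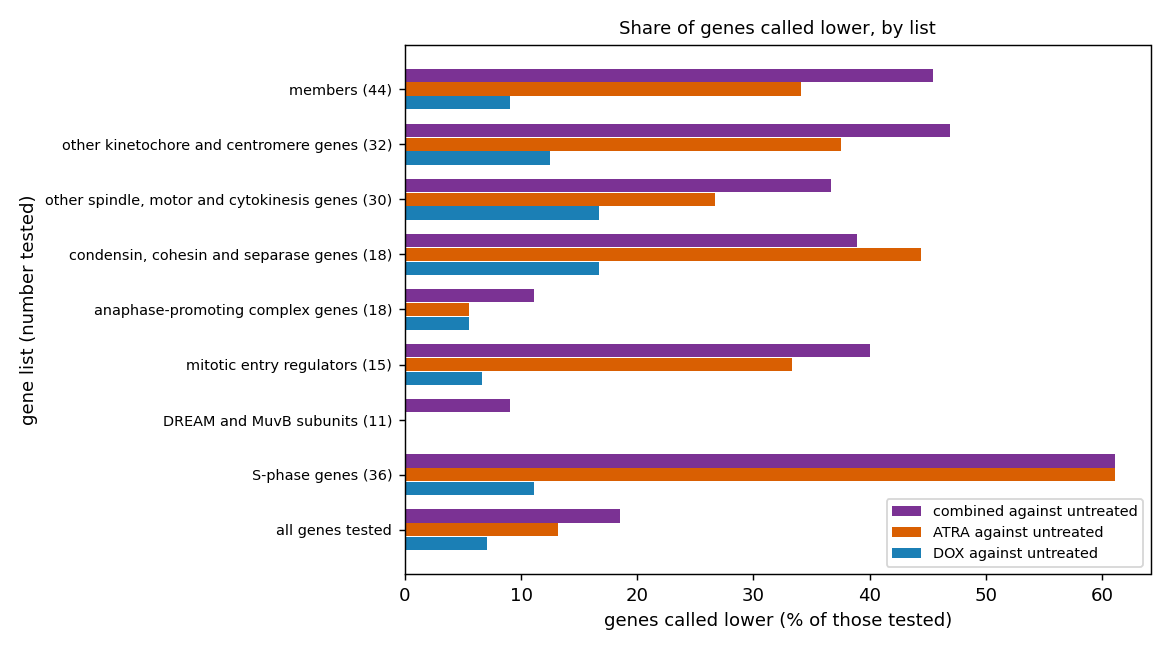
Share of tested genes called lower (x axis, percent) in each gene list (y axis, number tested in parentheses), for combined, ATRA and DOX against untreated. The ATRA bars reach 34.1% for the members and their highest value for S-phase genes, against 13.2% for all genes tested.

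The plot of list shares shows that, against untreated cells, DOX gave the shortest bar or tied for it in each list. Under DOX alone 4 of 32 other kinetochore genes, 5 of 30 other spindle genes, 3 of 18 condensin, cohesin and separase genes and 4 of 36 S-phase genes were lower, against 7.10% of all genes tested. Of the kinetochore genes 1 was higher, CENPW (0.46 ± 0.11), and of the other lists just named 0 were, against 8.08% of all genes tested. In the APC/C list of 18 genes 2 were higher, ANAPC13 (0.38 ± 0.12) and CDC34 (0.31 ± 0.10), and 1 was lower. CDC34 stood on that list but is not part of the APC/C. KNTC1 changed by -0.64 ± 0.10, KNL1, the kinetochore scaffold, by -0.44 ± 0.10 and CIT by -0.66 ± 0.11.

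Transcript length ran in part with the DOX changes. Of the genes lower under DOX, MKI67, CENPF and ASPM have the 3 longest exon sums of the members, at 12807, 11690 and 10887 bases. INCENP, also lower, has 4473, and PTTG1, the gene that was higher, has 2013. The next longest members, CENPE with 9444 bases, BUB3 with 8300 and KIF23 with 6576, were not called, at -0.20, -0.02 and 0.09. Across the 44 members the Spearman correlation of the change with exon length was -0.42 for DOX against untreated, -0.28 for ATRA against untreated, -0.29 for combined against ATRA, 0.06 for combined cells set against DOX cells and -0.31 for combined cells set against untreated cells. Over the 15757 tested genes with a length these values were -0.12, 0.01, -0.06, 0.08 and -0.02 in the same order of comparisons. The part of length in the members' results was not tested directly. The length trend of all genes was removed from each library in an alternative chosen after seeing the data. In it 7 members were lower under DOX alone and 1 was higher. Calls over all genes in that fit are not given here, so these counts cannot be read as particular to the members. That trend was fitted over all genes (correlation -0.12), so the fit cannot decide the part of the members' own relation (-0.42).

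**Figure D5:**
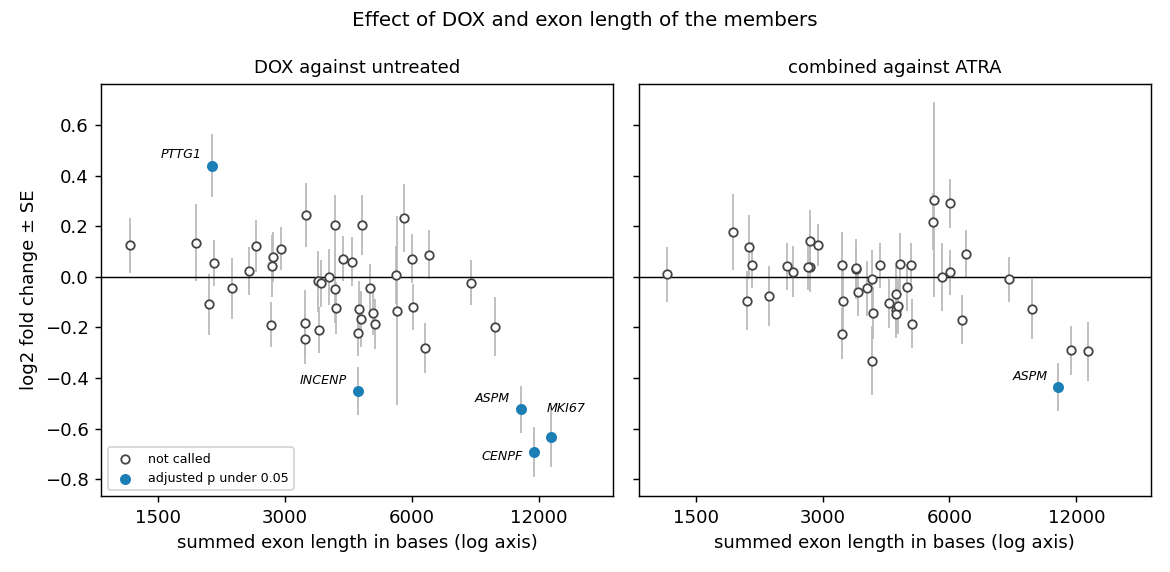
Log2 fold change ± SE against summed exon length in bases (log axis) of the tested members, for DOX against untreated (left) and combined against ATRA (right), with filled points for an adjusted p under 0.05. CENPF, MKI67 and ASPM, with exon sums of 10887 bases or more, lie lowest at left, and ASPM is the 1 filled point at right.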

How the data were processed

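Per the labels, total RNA of MOLM14 cells was sequenced. The authors deposited raw counts, whole numbers for each gene in each library. STAR, HTSeq and FastQC and the GRCh38 build are named per the submitters' processing notes. Versions, annotation release and strand setting are not given in the sources used here, so a gene and an antisense or overlapping partner cannot be told apart. The table held 61487 gene identifiers and 23 empty columns. Symbols came from a gene name table, and lengths and coordinates from GENCODE release 29.

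Library totals of 2685984 to 19358619 counts limit precision most in DOX replicate 3. edgeR 4.0.16 in R 4.3.3 kept 16104 genes (filterByExpr), scaled libraries by TMM and fitted 1 quasi-likelihood model of the 4 group means, calling a gene at a Benjamini-Hochberg adjusted p under 0.05 over all genes tested. The common biological coefficient of variation came to 9.54%. Errors of log2 changes are standard errors implied by the F test. With nothing in the labels on separate cultures beyond the term biological replicate, p-values measure the spread between these libraries.

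The members and lists were chosen with earlier results of these data known. All members could be named, and of each other list up to 4 called genes with the smallest adjusted p. Alternatives were DESeq2 1.42.0, other scalings, no count filter, only the groups compared, a replicate block, binomial thinning to equal depth, the mitochondrial ribosomal RNA share as a term, removal of the length trend, and leaving out libraries. Promoter windows are RefSeq's.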

Additional observations from a re-analysis of the deposited data

How the results depend on the processing

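No called change of a member reversed its direction under any alternative; among changes that were not called, 424 estimates of 117 member results took the opposite sign. Leaving out 1 library at a time gave 7 to 19 members lower for ATRA against untreated, 4 to 5 lower and 0 to 5 higher for DOX against untreated, 0 to 2 lower and 0 to 1 higher for combined against ATRA, 4 to 14 lower for combined cells set against DOX cells, 13 to 22 lower for combined cells set against untreated cells and 0 to 1 higher for the interaction. The calls over all genes then ran from 3455 to 5344, 659 to 4326, 264 to 1028, 2195 to 3898, 4392 to 6858 and 10 to 747 in the same order of comparisons. With no filter on low counts 7 members were lower for ATRA against untreated, and the interaction had 189 calls over all genes. With only the groups compared 23 members were lower for ATRA, 0 higher for DOX and 3 lower for combined against ATRA, with 1573 calls over all genes for DOX. With the mitochondrial ribosomal RNA term 27 members were lower for ATRA, 0 higher and 0 lower for DOX (77 calls over all genes) and 2 lower for combined against ATRA, with 3363 calls over all genes for combined against untreated. Thinned to equal depth, 0 members were higher for DOX and 2 lower for combined against ATRA, and the calls over all genes were 2656, 1197, 415, 1891, 3408 and 15 in the order above. With the length trend removed 7 members were lower for DOX, and the calls over all genes in that fit are not given here. Without replicate 3 of both untreated and DOX, 1 member was lower and 0 higher for DOX, with 169 calls over all genes for DOX and 9 for the interaction. For the interaction DESeq2 gave 117 calls over all genes and library size alone 24. The causes were not tested, except that thinning and leaving out libraries lower the depth or the number of samples by construction.

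Replicate numbers did not pair the libraries: same-numbered libraries correlated from -0.244 to 0.267 over 18 pairs, 4 of them over 0.1, and 3 of 12 libraries correlated best with their own number. With a replicate block 17 members were lower for ATRA, 1 higher and 5 lower for DOX, and, for the combined cells, 1 lower against ATRA, 10 against DOX and 22 against untreated cells. DOX replicate 3 and the low counts of PRC1 and NUSAP1 limit what could be detected.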
